A study of Aspergillus fumigatus with 4 samples.

Results

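The comparison described here sets the transcriptome of *Aspergillus fumigatus* Z5 on cellulose against that on rice straw, 2 of the 4 libraries of the series. Of the 9540 predicted genes, 9520 were compared; Y699_00001 to Y699_00020 were left out because the cellulose column holds 0 reads for all 20 of them. Z5 is a thermophilic strain of a filamentous fungus that degrades plant litter. Conidia were grown in sucrose medium for 20 h at 45 °C and 145 rpm per the labels (the study's methods give a longer pre-culture), and the mycelia were then moved for 16 h to medium whose sole carbon source was cellulose (Avicel PH-101, a purified microcrystalline cellulose) or rice straw, a plant residue that holds cellulose together with hemicellulose, pectin and lignin. The other libraries were from xylan and from sucrose, and their values are given only as levels. Both cultures were of one strain, and both had been pre-grown on sucrose. Each carbon source had 1 library, so no difference has a replicate check. Intervals are exact 95% counting intervals and cover counting error only.

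Cellulose is a chain of glucose units. Cellobiohydrolases release cellobiose from chain ends, endoglucanases cut inside the chain, AA9 lytic polysaccharide monooxygenases cleave it oxidatively, and beta-glucosidases split cellobiose to glucose. In straw, xylans, arabinans and pectins surround the cellulose, and xylanases, arabinofuranosidases, feruloyl esterases and polygalacturonases act on those polymers. In Aspergillus, the activator XlnR and the carbon catabolite repressor CreA are known to control many of these genes.

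The cellulose library held 7016686 reads counted in genes and the rice straw library 7553138, so 1 read was worth 0.143 RPM (reads per 1000000 reads of the library) on cellulose, against 0.132 RPM on rice straw. The 20 most abundant genes took 16.6% of the reads on cellulose and 21.2% on rice straw, and 10 genes were in both sets of 20. The GH6 cellobiohydrolase Y699_07898 (cbhC) stood at 5397 RPM on cellulose against 5938 RPM on rice straw, with 8.94 RPM on xylan and 2.71 RPM on sucrose, so it set the cellulose and rice straw libraries apart from xylan and sucrose but not from each other, and an exchange of their labels would not show in it. A gene was called where RPM differed 4-fold or more and reached 10 RPM in at least 1 of the 2 libraries, a level that 6967 genes reached. By this rule 542 genes were higher on cellulose (5.69% of 9520) and 396 were lower (4.16%). Genes called higher held 15.2% of the reads on cellulose and 2.14% on rice straw. Genes called lower held 1.97% of the reads on cellulose and 18.6% on rice straw.

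The balance of directions depended on the scale. The median log2 ratio of cellulose over rice straw was 0.36 over all genes with column totals as the scale. With edgeR's TMM factors every log2 ratio moved by -0.37, and 359 genes were called higher (3.77%) against 526 called lower (5.53%). The share of calls that were higher was thus 57.8% by totals and 40.6% by TMM. All 359 genes higher by TMM were also higher by totals, and all 396 genes lower by totals were also lower by TMM. That follows from moving every ratio by the same negative amount and is no check on the calls. Ratios below are by totals, and list medians are to be read against the median of 0.36. Counts of called list members are to be read against 5.69% higher and 4.16% lower of all genes, unless other shares are given.

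**Figure D1:**
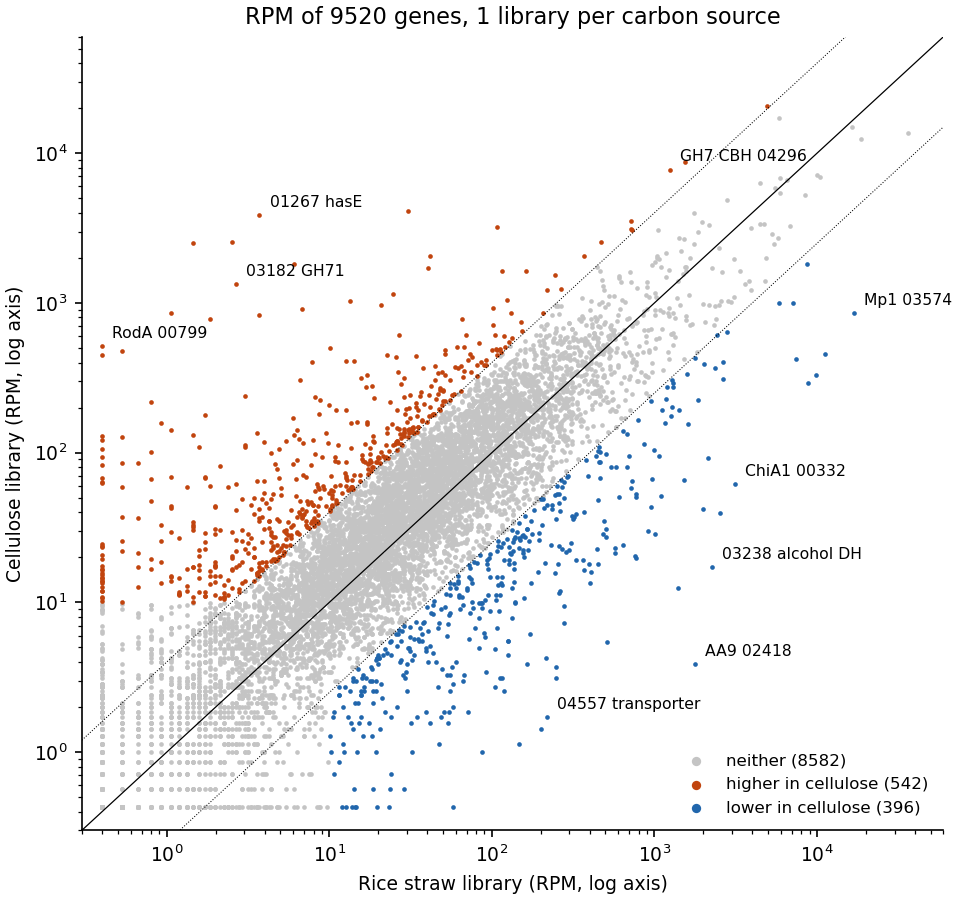
RPM in the cellulose library (vertical, log axis) against RPM in the rice straw library (horizontal, log axis) for 9520 genes, with values under 3 reads drawn at 3 reads; the solid line marks equal RPM and the dotted lines a 4-fold difference. The 542 genes called higher lie above the upper dotted line and the 396 called lower lie below the lower one.

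The ratio also moved with the length of the gene. Among the genes at 10 RPM or more, the median log2 ratio was -0.30 in the shortest decile (150 to 600 coding bases) and 1.05 in the longest decile (3048 to 25089 bases). The shortest decile held 45 genes called higher and 60 called lower, whereas the longest held 71 higher and 11 lower. The mean coding length weighted by reads was 2022 bases on cellulose and 1711 bases on rice straw, with 1685 on xylan and 1900 on sucrose. With each log2 ratio set against the median of its own length decile, a check chosen after seeing the data, 351 genes were called higher (3.69%) and 489 lower (5.14%). By all 3 rules 312 genes were higher and 381 were lower. No gene was called in opposite directions, which shifts of this size could not have produced at a 4-fold threshold. The part of this length trend in the results was not tested further.

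**Figure D2:**
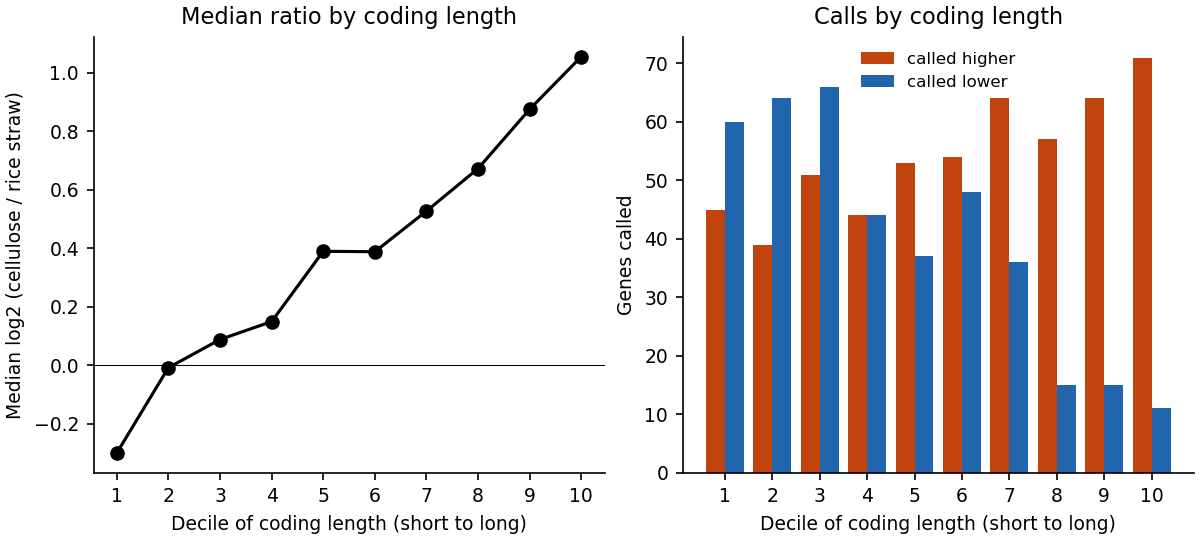
Left, the median log2 ratio of cellulose over rice straw in each decile of the genes at 10 RPM or more, ordered from short to long coding length; right, the number of genes in each decile called higher or lower. The median climbs from -0.30 to 1.05 from the shortest to the longest decile, and the calls shift from 45 higher and 60 lower to 71 higher and 11 lower.

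Cellobiohydrolases were abundant on both substrates but in a different order. The GH7 enzyme Y699_04296 (cbhB) stood at 7749 RPM on cellulose against 1247 RPM on rice straw and was 6.21-fold higher on cellulose (interval 6.08 to 6.35). The GH6 enzyme Y699_07898 did not pass the 4-fold rule, nor did the GH7 enzyme Y699_03865 (cbhA), at 399 RPM on cellulose against 214 RPM on rice straw. Per kilobase of coding length, Y699_04296 led on cellulose with 4846 RPM per kb, before Y699_07898 with 3911 and Y699_03865 with 294. On rice straw Y699_07898 led with 4303 RPM per kb, before Y699_04296 with 779.8 and Y699_03865 with 157. Summed over the 3 genes, cellobiohydrolase reads made up 13545 RPM on cellulose against 7398 RPM on rice straw.

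Among the 15 endoglucanases outside the AA9 and GH16 families, 2 were higher and 1 was lower on cellulose, and their median log2 ratio was -0.09. The GH16 genes are given further below. The GH5 endoglucanase Y699_04295 (egl2), the neighbour of Y699_04296 by locus number, stood at 714 RPM on cellulose against 102 RPM on rice straw and was 7.01-fold higher (6.499 to 7.58). Both genes of this pair were thus called in one direction. The GH5 gene Y699_03907 had 27.4 RPM on cellulose against 4.63 RPM on rice straw (5.91-fold higher, 4.10 to 8.73). The GH5 gene Y699_05311 was the one called lower, with 4.99 RPM on cellulose against 83.8 RPM on rice straw (16.8-fold, 11.95 to 24.3). Several well-read endoglucanases stayed within 4-fold: Y699_05825, an endoglucanase with a CBM1 cellulose-binding module, had 456 RPM on cellulose against 143 RPM on rice straw, and the GH12 gene Y699_08637 had 916 and 897 RPM in the same order. The GH7 endoglucanase Y699_07518 leaned the other way, with 722 RPM on cellulose against 1706 RPM on rice straw, as did the GH45 gene Y699_08692 with 632 RPM on cellulose against 1298.3 RPM on rice straw.

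The AA9 monooxygenases were split, with a set of genes near zero on cellulose. Of 9 genes, 0 were called higher and 4 lower on cellulose, with a median log2 ratio of -1.89. That median is the bound of Y699_04103, named after its values were seen, which had 0 reads on cellulose against 12 reads on rice straw and was set at the floor of 3 reads; relative to the median of all genes the list stood at -2.25 with this floor and at -4.84 with 0.5 reads in its place. Y699_02418 had 3.85 RPM (27 reads) on cellulose against 1765 RPM (13329 reads) on rice straw, and was 459-fold lower (315 to 696). Y699_05110 had 42.04 RPM on cellulose against 1979 RPM on rice straw (47.1-fold lower, 41.9 to 53.0). Y699_05430 (eglD) had 28.5 RPM on cellulose against 1010.2 RPM on rice straw (35.4-fold lower, 30.8 to 41.0), and Y699_03689 had 3.14 RPM on cellulose against 249 RPM on rice straw (79.3-fold lower, 52.2 to 127). These 4 genes were low or near zero on cellulose, where AA9 reads came mostly from Y699_06174, with 3972 RPM on cellulose against 1749 RPM on rice straw (2.27-fold, 2.22 to 2.32). Y699_02044 had 706 RPM on cellulose against 200.3 RPM on rice straw, and Y699_02424 had 541 and 668 RPM in that order; neither passed the rule. Per kilobase, Y699_06174 led the family on both substrates, with 5274 RPM per kb on cellulose and 2322 on rice straw, and on rice straw Y699_02418 and Y699_05110 followed closely with 2021 and 1763. The summed AA9 level was 5303 RPM on cellulose against 7623.5 RPM on rice straw.

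**Figure D3:**
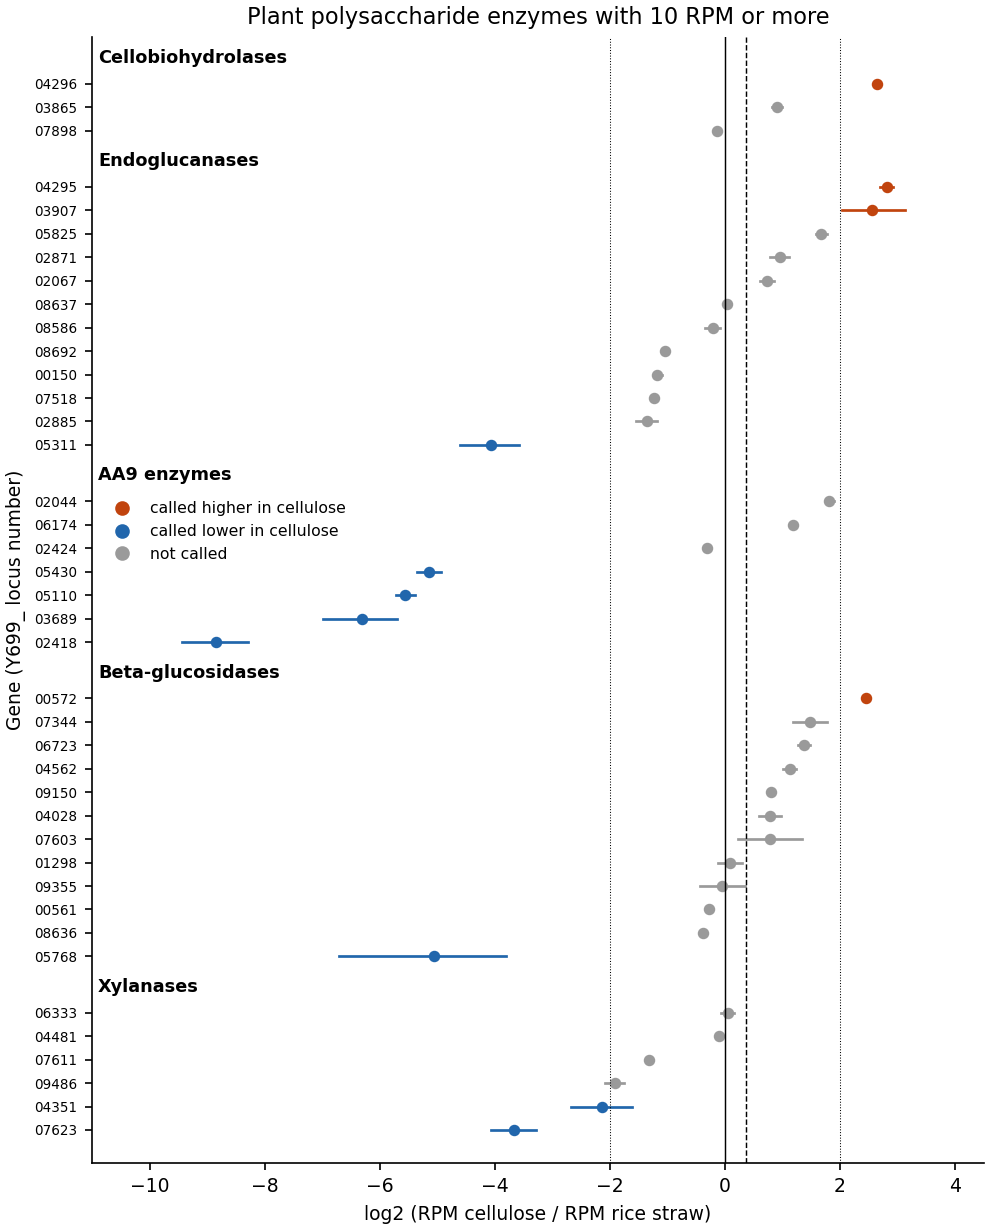
log2 ratio of cellulose over rice straw for each cellobiohydrolase, endoglucanase outside GH16, AA9 enzyme, beta-glucosidase and xylanase with 10 RPM or more in either library. Bars are exact 95% counting intervals. Dotted lines mark 4-fold, and the dashed line marks the median of all genes, 0.36. The 4 AA9 genes called lower lie at -5.15 or below, and the gene pair Y699_04295 and Y699_04296 lies above 2.

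Beta-glucosidases were mostly within 4-fold, with 1 of 16 genes called higher and 1 lower (median log2 ratio 0.79). The GH3 enzyme Y699_00572 (exg18) had 2568 RPM on cellulose against 468 RPM on rice straw (5.48-fold higher, 5.29 to 5.69); it was no longer called once set against its length decile. The GH1 enzyme Y699_09150 was the other abundant member, with 2664 RPM on cellulose against 1521 RPM on rice straw. Y699_05768 was lower on cellulose, with 0.713 RPM against 23.8 RPM on rice straw (33.4-fold, 14.1 to 104). Of the 3 cellobiose dehydrogenases, which oxidise cellobiose and can donate electrons to AA9 enzymes, Y699_02120 had 3073 RPM on cellulose against 1051 RPM on rice straw (2.92-fold, 2.85 to 3.001). Y699_04685 ran the other way and was called lower, with 40.3 RPM on cellulose against 369 RPM on rice straw (9.14-fold, 8.08 to 10.4). Y699_05507 had 91.5 RPM on cellulose against 122 RPM on rice straw.

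Enzymes that act on the other polymers of straw were more often lower than higher on cellulose. Of 7 xylanases of families GH10 and GH11, 0 were higher and 2 lower (3 lower by TMM and against the length deciles): Y699_07623 had 8.69 RPM on cellulose against 110.3 RPM on rice straw (12.7-fold, 9.77 to 16.7) and Y699_04351 had 5.42 and 23.7 RPM in that order. The most abundant GH10 xylanase, Y699_04481, was almost level, with 2342 RPM on cellulose against 2502 RPM on rice straw, and Y699_06333 likewise, with 199.8 and 194 RPM. The GH11 xylanase Y699_07611 (xynf11a) had 947 RPM on cellulose against 2359 RPM on rice straw (2.49-fold lower in value, 2.42 to 2.56). Y699_09486 had 50.02 RPM on cellulose against 189 RPM on rice straw, just inside the 4-fold rule by totals, and was called lower by TMM.

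Of the 36 other hemicellulases, 3 were higher and 7 lower on cellulose, with a median log2 ratio of -0.64; against the length deciles 2 were higher and 10 lower. The feruloyl esterase Y699_02419 (faeC), which frees ferulic acid from arabinoxylan and is the locus next to the AA9 gene Y699_02418, had 1.14 RPM on cellulose against 148 RPM on rice straw (130-fold lower, 65.5 to 301). The GH62 arabinofuranosidase Y699_04661 was the most abundant member called lower, with 426 RPM on cellulose against 1773 RPM on rice straw (4.16-fold, 4.001 to 4.33). The GH43 gene Y699_05728 had 9.98 RPM on cellulose against 85.4 RPM on rice straw (8.56-fold lower, 6.68 to 11.1). Against this trend, 2 GH43 genes annotated as endo-arabinanases were higher: Y699_02394 with 66.8 RPM on cellulose against 0.794 RPM on rice straw (84.1-fold, 38.4 to 230), and Y699_02459 with 219 RPM on cellulose against 23.7 RPM on rice straw (9.23-fold, 7.90 to 10.8). The third was the beta-mannosidase Y699_08834 (mndB), with 200.1 RPM on cellulose against 31.0 RPM on rice straw (6.46-fold, 5.62 to 7.45). Of the beta-xylosidases, which release xylose from xylo-oligomers, Y699_04570 was lower on cellulose, with 11.4 RPM against 51.9 RPM on rice straw, while Y699_04662 (168 RPM on cellulose, 355 RPM on rice straw) and Y699_05610 (151 RPM on cellulose, 229.8 RPM on rice straw) stayed within 4-fold.

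Pectinases had 0 higher and 4 lower of 33 genes, and their median log2 ratio was -0.89; by TMM and against the length deciles 6 were lower. The endo-polygalacturonase Y699_05780 (pgaB), which cuts the pectin backbone, had 1.995 RPM on cellulose against 57.3 RPM on rice straw (28.7-fold lower, 16.9 to 53.0). The exopolygalacturonase Y699_07404 had 4.99 RPM on cellulose against 30.6 RPM on rice straw, and the pectin lyase Y699_08525 had 2.14 RPM on cellulose against 14.96 RPM on rice straw. By CAZy class, the glycoside hydrolases had 34 higher and 20 lower of 272 by totals but 26 higher and 31 lower by TMM and 22 higher and 31 lower against the length deciles, so their balance turned with the scale. The auxiliary activity class had 2 higher and 11 lower of 55 (2 and 14 against the length deciles), and the carbohydrate esterases 0 higher and 4 lower of 68 (0 and 8). Of the auxiliary calls, 2 higher and 4 lower fell among 23 AA7 genes. These include secondary metabolite cluster genes such as Y699_06111. Genes with a carbohydrate-binding module had 5 higher and 13 lower of 61 (4 and 15 against the length deciles). Of those calls, 2 higher and 4 lower fell among 10 CBM18 genes, which include Y699_02126, described as a conidial pigment gene. Glycosyltransferases had 5 higher and 5 lower of 98 (3 and 6 against the length deciles). Polysaccharide lyases had 1 higher and 1 lower of 14 (0 and 2 against the length deciles).

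Transcripts of the described sugar transporters leaned to rice straw. Of 32 described sugar transporters, 0 were higher and 8 lower on cellulose, and the median log2 ratio was -1.02; by TMM and against the length deciles 10 were lower. These descriptions exist only for genes that the study selected for varying across these 4 libraries, so the counts for groups drawn from them are not independent of the expression values. All 1974 such genes together had 212 called higher (10.7%) and 315 called lower (15.96%), with a median log2 ratio of 0.18, and the counts of groups drawn from them are to be read against these shares. By TMM 146 of the 1974 were higher and 386 lower, and against the length deciles 133 and 367. Group counts by those rules are to be read against these larger numbers lower and smaller numbers higher. The monosaccharide transporter Y699_04557 had 1.71 RPM on cellulose against 217 RPM on rice straw (127-fold lower, 72.6 to 247), and on xylan it stood at 794 RPM. Y699_08580 had 3.85 RPM on cellulose against 165 RPM on rice straw (42.8-fold lower, 29.3 to 65.2). Y699_04571, a hexose transporter, had 7.84 RPM on cellulose against 132 RPM on rice straw (16.9-fold lower, 12.9 to 22.6), and Y699_05888 had 10.1 RPM on cellulose against 138 RPM on rice straw (13.7-fold lower, 10.7 to 17.6). The maltose transporter Y699_03783 had 9.41 RPM on cellulose against 277 RPM on rice straw (29.4-fold lower, 23.0 to 38.2). In contrast, the lactose permease homolog Y699_09366 was abundant on both, with 1745 RPM on cellulose against 1545 RPM on rice straw, against 8.21 RPM on xylan and 7.85 RPM on sucrose. Among the other transporters named in the study's text, Y699_01300, Y699_02331, Y699_03701, Y699_07512, Y699_04563 and Y699_09270, differed by 1.13-fold to 3.62-fold, and Y699_04574 had 1 read on cellulose against 5 reads on rice straw.

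The 22 genes whose homologs are known to respond to xylose in other Aspergilli had 2 higher and 6 lower. Against the length deciles 0 were higher and 6 lower. Their median log2 ratio was -0.56, while their summed level was 4056 RPM on cellulose against 3869 RPM on rice straw. D-xylulose kinase Y699_00823 (xkiA), which feeds xylose into the pentose phosphate pathway, had 44.8 RPM on cellulose against 235 RPM on rice straw (5.25-fold lower, 4.65 to 5.94). The aldose 1-epimerase Y699_01239 had 37.2 RPM on cellulose against 319 RPM on rice straw (8.59-fold lower, 7.56 to 9.80). The regulator gene Y699_02312 (xlnR) itself differed little, with 179 RPM on cellulose against 226 RPM on rice straw (1.27-fold, 1.18 to 1.36), and Y699_02675 (creA) had 3366 RPM on cellulose against 4714 RPM on rice straw (1.40-fold, 1.38 to 1.42).

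**Figure D4:**
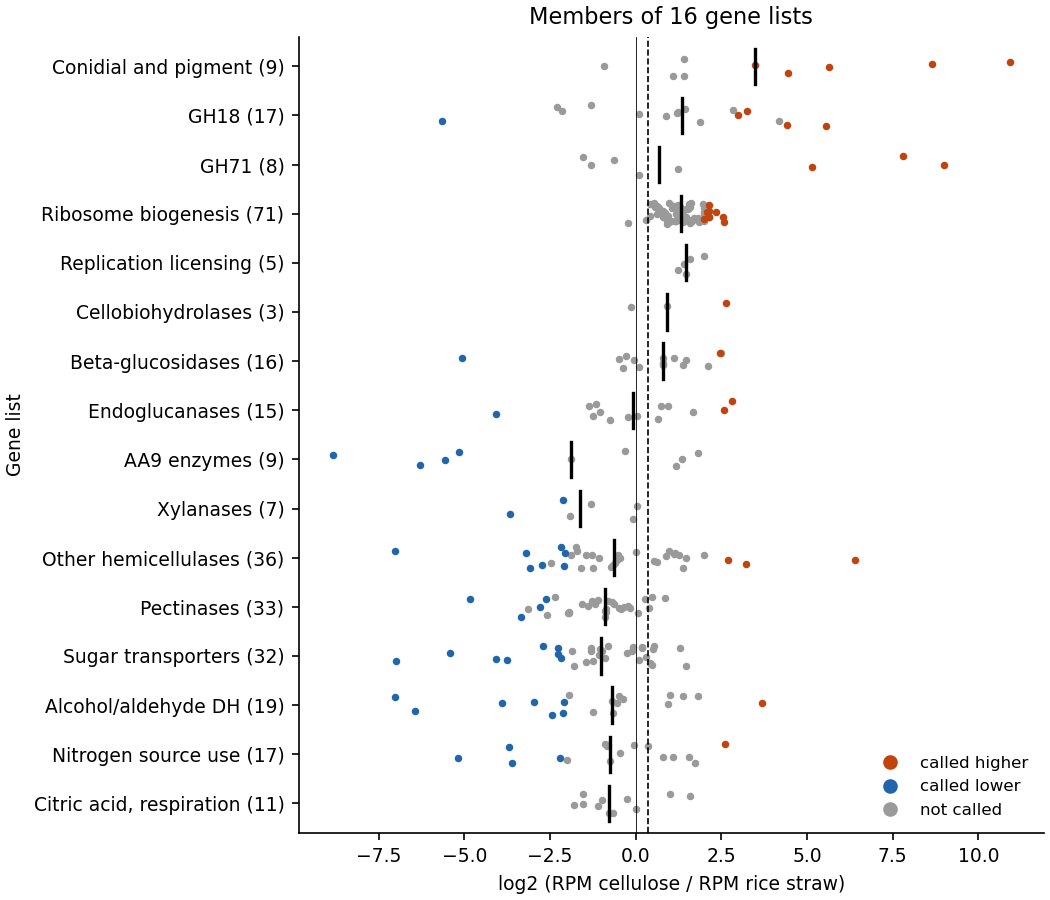
log2 ratio of cellulose over rice straw for each member, with its number of genes in brackets, of 16 gene lists; black bars are list medians, the dashed line is the median of all genes (0.36), and genes with no ratio are not drawn. Conidial and pigment genes reach furthest to the right (median 3.49), while an AA9 enzyme lies furthest to the left (-8.84).

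Enzymes that degrade the fungus's own wall polymers were among the largest differences, in both directions. Of 17 GH18 genes, the chitinase family, 4 (23.5%) were higher and 1 (5.88%) lower on cellulose (4 and 2 against the length deciles). The share lower was near the 4.16% of all genes. Y699_05833 (chiB1), a class V chitinase, had 974 RPM on cellulose against 20.7 RPM on rice straw (47.2-fold higher, 40.2 to 55.6), and its levels on xylan and sucrose were 1.03 and 0.571 RPM. Y699_08538 (chi3) had 105 RPM on cellulose against 4.90 RPM on rice straw (21.5-fold higher, 15.4 to 30.7), and Y699_01427 had 484 RPM on cellulose against 51.1 RPM on rice straw (9.47-fold higher, 8.52 to 10.6). Y699_00332 (chiA1), a class III chitinase, went the other way, with 61.3 RPM on cellulose against 3121 RPM on rice straw (50.9-fold lower, 46.3 to 56.2).

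Of 8 GH71 genes, which encode alpha-1,3-glucanases, 3 (37.5%) were higher and 0 lower (3 and 1 against the length deciles). Y699_03182 had 1339 RPM on cellulose against 2.65 RPM on rice straw (506-fold, 327 to 828), and the next locus, Y699_03183, had 831 RPM on cellulose against 3.71 RPM on rice straw (224-fold, 155 to 338). Both carry the same Af293 locus tag in the study's descriptions, so they may be pieces of 1 gene. Y699_05485 had 32.9 RPM on cellulose against 0.927 RPM on rice straw (35.5-fold, 16.97 to 89.3). Among the GH16 glucanases 4 of 14 (28.6%) were higher and 0 lower (3 higher by TMM). The study lists 8 GH16 genes, endo-1,3(4)-beta-glucanases, with its cellulases rather than as wall enzymes. Of these 8, 3 (37.5%) were higher and 0 lower (2 higher by TMM), with a median log2 ratio of 0.25. They include Y699_07776, which had 23.8 RPM on cellulose against 0 reads on rice straw. It was at least 59.9-fold higher, taking 3 reads as the floor for the library without reads. Of 5 GH17 genes 2 (40%), annotated as wall glucanases, were lower. Y699_07606 (bgt2) had 998.9 RPM on cellulose against 7143 RPM on rice straw (7.15-fold, 6.97 to 7.33). Y699_05526 had 369 RPM on cellulose against 2345 RPM on rice straw (6.36-fold, 6.10 to 6.63).

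Among genes of conidia, the asexual spores, some were far higher on cellulose. Of 9 genes described as conidial or as conidial pigment enzymes, 5 (55.6%) were higher and 0 lower, with a median log2 ratio of 3.49. Among all described genes 10.7% were higher. The same 5 of 9 were called by TMM and against the length deciles. They include the neighbouring pigment genes Y699_02123, Y699_02124 and Y699_02126. Y699_00799 (rodA), the hydrophobin of the conidial rodlet layer, had 512 RPM (3596 reads) on cellulose against 0.265 RPM (2 reads) on rice straw, a 1935-fold difference with an interval of 535 to 15988. The second hydrophobin Y699_09371 (rodB) had 2072 RPM on cellulose against 41.8 RPM on rice straw (49.5-fold, 44.3 to 55.5). The regulators of asexual development moved less: Y699_04830 (wetA) had 23.8 RPM on cellulose against 9.003 RPM on rice straw, Y699_06949 (flbD) had 24.8 and 9.40 RPM, and Y699_02729 (flbA) had 243 and 462 RPM in that order. In whole-culture RNA, more cells of a type and more RNA per cell cannot be told apart.

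The pigment genes lie side by side. From Y699_02122 to Y699_02127 all 6 loci were higher on cellulose, by 11.2-fold to 401-fold. Y699_02126 (abr1), an oxidase of the melanin pathway, had 106 RPM on cellulose against 0.265 RPM on rice straw (401-fold, 111 to 3317). Y699_02124 (arp2) had 131 RPM on cellulose against 6.09 RPM on rice straw, and Y699_02123 (arp1) had 49.0 and 4.37 RPM. The long gene Y699_02122 at the edge of the run had 607 RPM on cellulose against 27.0 RPM on rice straw. On xylan the 6 genes stood between 3.23 and 60.7 RPM.

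Neighbouring genes were called together at 14 places where 4 or more consecutive loci passed in one direction, 12 runs higher (56 genes) and 2 runs lower (8 genes). Of the 12 runs that were higher, 7 touched a secondary metabolite cluster listed by the study, and of the 2 lower runs 1 did. Filamentous fungi often keep the genes for 1 secondary metabolite side by side, and such clusters commonly hold a backbone enzyme, tailoring enzymes and a transcription factor. The 30 clusters of the study hold 440 of the 9520 genes compared, and 229 of the 440 reached 10 RPM in either library. Of the 440, 62 (14.1%) were higher and 28 (6.36%) lower, against 5.69% and 4.16% of all genes compared.

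A pair of the runs lay in or touched the study's cluster 3, which holds hexadehydroastechrome pathway genes (has genes) in the Af293 annotation: 7 of its 18 genes were higher and 0 lower. Summed over the cluster, the level was 24111 RPM on cellulose against 2152 RPM on rice straw, and it was 27769 RPM on xylan and 1001 RPM on sucrose. The nonribosomal peptide synthase Y699_01268 (nrps5) had 2545 RPM on cellulose against 2.52 RPM on rice straw (1012-fold, 648 to 1681). Y699_01267 (hasE), a dimethylallyl tryptophan synthase, had 3868 RPM on cellulose against 3.71 RPM on rice straw (1044-fold, 722 to 1571). Y699_01269 (hasC), an O-methyltransferase, had 2512 RPM on cellulose against 1.46 RPM on rice straw (1725-fold, 964 to 3456), and Y699_01265 (hasG) had 857 RPM on cellulose against 1.06 RPM on rice straw (809-fold, 411 to 1876). The transcription factor Y699_01271 (hasA) differed less, with 3240 RPM on cellulose against 108 RPM on rice straw (29.95-fold, 27.9 to 32.2). The transporter Y699_01270 (hasB) had 8783 RPM on cellulose against 1534 RPM on rice straw (5.72-fold higher, 5.61 to 5.84). The locus between the 2 runs, Y699_01266, named after its values were seen, had 61.1 RPM on cellulose against 16.7 RPM on rice straw and was not called.

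The 6 genes from Y699_01197 to Y699_01202, in cluster 2, were 27.7-fold to 236-fold higher. They include Y699_01199, annotated as a siderochrome-iron transporter, with 1023 RPM on cellulose against 13.4 RPM on rice straw (76.5-fold, 62.8 to 94.0). These genes were also read on sucrose, where Y699_01199 stood at 2575 RPM. Elsewhere the iron uptake list had 1 of 8 genes higher: the ferric-chelate reductase Y699_09369 (fre2), with 52.3 RPM on cellulose against 5.03 RPM on rice straw. In cluster 10, Y699_04336, Y699_04337 and Y699_04338 had 450.5, 82.1 and 122 RPM on cellulose against 0 reads on rice straw, so they were at least 1134-fold, 207-fold and 306-fold higher. In cluster 17, which holds fumitremorgin genes in the Af293 annotation, the run from Y699_05946 to Y699_05950 was 7.79-fold to 22.5-fold higher, with Y699_05948 (ftmPT1) at 32.8 RPM on cellulose against 1.46 RPM on rice straw. The run from Y699_09283 (osc3) to Y699_09288 (helD1), genes of helvolic acid synthesis, was 4.52-fold to 11.6-fold higher by totals, and 4 of its 6 genes were called by TMM and 4 against the length deciles.

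In cluster 18, 5 of 6 genes were lower and 0 higher: Y699_06110, Y699_06111, Y699_06112, Y699_06114 and Y699_06115. The FAD-dependent oxidase Y699_06111 had 1.43 RPM on cellulose against 199.9 RPM on rice straw (140-fold, 76.1 to 293), and the polyketide synthase Y699_06115 (fgnA) had 10.4 RPM on cellulose against 90.2 RPM on rice straw (8.67-fold, 6.80 to 11.2). The 4 loci Y699_05731 to Y699_05734, of which 3 lie in cluster 14, formed a run lower on cellulose; against the length deciles 3 of the 4 were called. The last is a sterol gene: Y699_05734 (erg25), a C-4 methyl sterol oxidase, had 43.3 RPM on cellulose against 953 RPM on rice straw (22.002-fold, 19.6 to 24.8). The other lower run, Y699_00045 to Y699_00048, includes the GABA permease Y699_00046 with 58.1 RPM on cellulose against 714 RPM on rice straw (12.3-fold, 11.1 to 13.6).

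**Figure D5:**
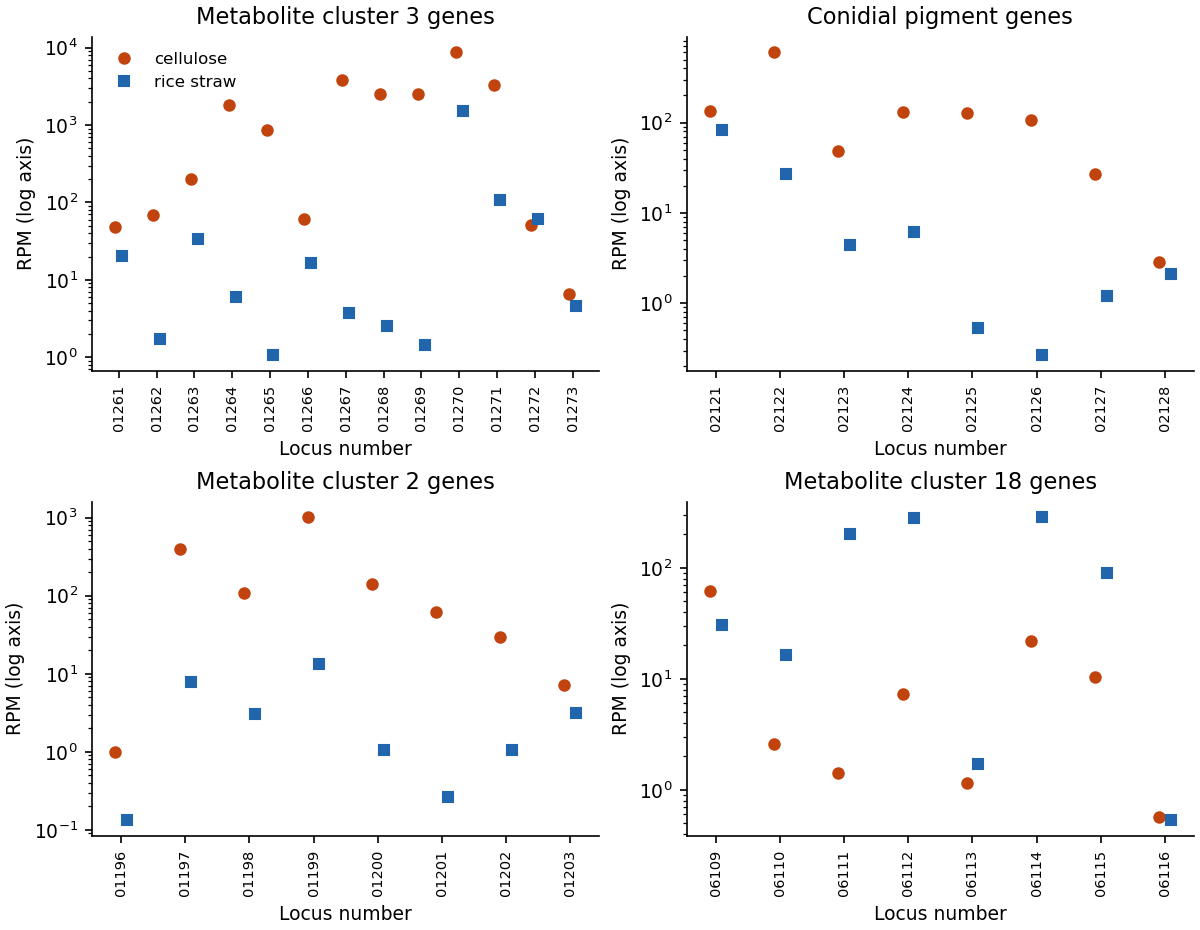
RPM (log axis) by locus number in 4 groups of neighbouring genes, with cellulose as circles drawn left of the rice straw squares; flanking loci are included. In the cluster 3, pigment and cluster 2 groups the circles stand far above the squares inside the runs. In cluster 18 the squares stand above the circles in all 6 genes, of which 5 were called lower.

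Genes of ribosome biogenesis and replication licensing leaned to cellulose by small steps. Of 71 ribosome biogenesis genes 9 (12.7%) were higher and 0 lower. The share higher was near the 10.7% of all described genes, of which 15.96% were lower. Their median log2 ratio was 1.33 for the 71 genes, which is 0.97 above the median of all genes. The calls were near the threshold: by TMM 2 genes were higher, and against the length deciles 1 was, with a median of 0.76. The rRNA processing gene Y699_06808 (mrd1) had 414 RPM on cellulose against 71.0 RPM on rice straw (5.84-fold, 5.32 to 6.41). Y699_04977, a subunit of RNA polymerase I, had 586 RPM on cellulose against 133 RPM on rice straw (4.40-fold, 4.10 to 4.72), and Y699_02269, the RRP5 homolog, had 599 RPM on cellulose against 118 RPM on rice straw. The 5 MCM genes of replication licensing, Y699_00217, Y699_00917, Y699_01168, Y699_02911 and Y699_06887, ran from 2.34-fold to 3.96-fold and none was called. They are long genes, with a median of 2691 coding bases, and set against their length deciles their median log2 ratio was 0.60.

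Genes of gluconeogenesis, the glyoxylate and citric acid cycles and respiration had few calls. Of 8 gluconeogenesis and glyoxylate genes, 0 were higher and 1 lower: malate synthase Y699_07347 (acuE), with 1824 RPM on cellulose against 8651 RPM on rice straw (4.74-fold, 4.65 to 4.83). Phosphoenolpyruvate carboxykinase Y699_03930 (acuF), among the 5 most-read genes in both libraries, had 14896 RPM on cellulose against 16476 RPM on rice straw. Of 11 citric acid cycle and respiration genes none was called, and their median log2 ratio was -0.78. Relative to the median of all genes this list stood at -1.14, and 8 of its 11 genes had ratios below 1. Those genes are short, with a median of 591 coding bases, and set against their length deciles their median log2 ratio was -0.81. Of 19 genes described as alcohol or aldehyde dehydrogenases or pyruvate decarboxylases, 1 was higher and 7 (36.8%) lower (1 and 8 by TMM and against the length deciles). Among all described genes 15.96% were lower. Y699_03238, an alcohol dehydrogenase, had 17.2 RPM on cellulose against 2259 RPM on rice straw (131-fold, 110 to 158), while xylan and sucrose gave 5.42 and 4.996 RPM. The NADP-dependent alcohol dehydrogenase Y699_07549 had 273 RPM on cellulose against 1191 RPM on rice straw (4.36-fold, 4.15 to 4.58). Pyruvate decarboxylase Y699_01443 (pdcA), the entry step of ethanol formation, had 69.4 RPM on cellulose against 294 RPM on rice straw, and on sucrose it stood at 6621 RPM.

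Of 17 nitrogen source genes 1 was higher and 4 (23.5%) were lower, against the 15.96% lower among all described genes. Nitrite reductase Y699_05083 (niiA) had 3.14 RPM on cellulose against 115 RPM on rice straw (36.7-fold, 24.1 to 58.9), whereas the proline oxidase Y699_04034 had 136 RPM on cellulose against 22.5 RPM on rice straw (6.03-fold higher, 5.12 to 7.15). Of 23 peptidases, 1 was higher and 6 lower (0 and 7 against the length deciles). Among those lower were the metalloproteases Y699_09185 (mep20), with 28.8 RPM on cellulose against 486 RPM on rice straw (16.9-fold, 14.6 to 19.5), and Y699_05406 (mep), with 5.84 and 90.7 RPM (15.5-fold, 11.3 to 21.8). Of 9 ergosterol genes 1 was higher and 2 lower, whereas 0 were higher and 3 lower against the length deciles. The one higher gene, HMG-CoA reductase Y699_03153 (hmg1), had 1227 RPM on cellulose against 217 RPM on rice straw (5.65-fold higher, 5.36 to 5.96) and was not called against its length decile. Of 227 secretory pathway genes, 5 were higher and 2 lower, with a median log2 ratio of 0.34; by TMM, and also against the length deciles, 1 was higher and 2 lower. The alpha-glucosidase Y699_09020 (agdC) of glycoprotein processing was the one still higher under both, with 927 RPM on cellulose against 101 RPM on rice straw (9.19-fold, 8.52 to 9.92).

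Highly read genes showed where the libraries diverge in mass. The cell wall galactomannoprotein Y699_03574 (mp1) had 858 RPM on cellulose against 16882 RPM on rice straw (19.7-fold lower, 19.2 to 20.2). The flavohemoprotein Y699_03555 (fhpA), a nitric oxide dioxygenase, had 457 RPM on cellulose against 11180 RPM on rice straw (24.5-fold lower, 23.6 to 25.4). The undescribed gene Y699_03637 was the most read gene on cellulose, with 20727 RPM on cellulose against 4916 RPM on rice straw (4.22-fold higher, 4.17 to 4.27), and was not called by TMM. The elongation factor eEF-3, Y699_08591, had 17153 RPM on cellulose against 5822 RPM on rice straw. The undescribed gene Y699_01787 led on rice straw, with 13565 RPM on cellulose against 36104 RPM on rice straw (2.66-fold, 2.64 to 2.68), while Y699_03281 had 12382 and 18597 RPM. Of the 20 most read genes on cellulose 6 were called higher, and of the 20 on rice straw 8 were called lower.

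Further genes called lower whose intervals lay far from 1 were the short-chain dehydrogenase Y699_05262, with 12.5 RPM on cellulose against 1401 RPM on rice straw (112-fold, 90.6 to 139), and the cyanamide hydratase Y699_08646, with 5.42 and 510 RPM (94.1-fold, 68.4 to 133). The thiamine pyrophosphate enzyme Y699_02510 had 39.3 RPM on cellulose against 2521 RPM on rice straw (64.1-fold, 56.9 to 72.4), and the CipA-like oxidoreductase Y699_08030 had 3.71 and 248 RPM (67.0-fold, 45.6 to 103). The undescribed Y699_09401 had 3 reads on cellulose and 437 on rice straw (135-fold, 46.0 to 659). On the higher side were 2 genes without a description, Y699_05499, with 480 RPM on cellulose against 0.530 RPM on rice straw (906-fold, 354 to 3327), and Y699_04913, with 776 and 1.85 RPM (419-fold, 249 to 766). The cytochrome P450 Y699_01264 (hasH) had 1825 RPM on cellulose against 6.09 RPM on rice straw (299.7-fold, 225 to 410).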

How the data were processed

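RNA was poly(A)-selected and cap-selected, and full-length cDNA was sonicated and sequenced. The deposited read counts per predicted Z5 gene come, per the submitters' processing notes, from Bowtie 0.12.2; no source used here gives strand or multi-mapping settings. The authors' RPM values are the counts scaled to 1000000 reads per column. Their fold changes, q-values and direction flags were not used. Deposited gene lengths are coding lengths. From the counts, RPM ratios of cellulose over rice straw were computed with exact Clopper-Pearson intervals (scipy 1.17.1), a floor of 3 reads for genes at 0, and edgeR 4.0.16 TMM and DESeq2 1.42.0 size factors as other scales. The call and interval calculations were checked on simulated counts, which carry no replicate error. Those counts followed the counting model that the intervals assume, and the planted changes lay beyond the threshold in well-read genes. The check therefore does not bear on calls near the threshold or in genes with few reads. Named genes were the 12 calls in each direction whose interval bound nearest 1 lay farthest from 1, the most abundant called members of each list, genes named in the study's text and the 5 most read genes per library. Members and lists were chosen with earlier results of these data known. Symbols come from Af293 (ASM265v1) through locus tags in the study's descriptions; 1668 of 1669 tags matched, and 321 genes carried a symbol.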

Additional observations from a re-analysis of the deposited data

Results flagged for a closer look

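The 20 genes left out of the comparison, Y699_00001 to Y699_00020, had 0 reads on cellulose and 856 reads on rice straw, with 583 reads on sucrose and 433 on xylan. The signal on rice straw is above the limit that a count of 0 allows, and it lies in genes that no comparison above uses. Of the 20 genes, 15 had a read on rice straw. Why the cellulose column is at 0 for all 20 was not tested.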

How the results depend on the processing

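The direction balance depended on the scale: TMM over the 2 libraries gave 359 genes higher (40.6% of calls), DESeq2 size factors 360 (40.9%), TMM over the 4 libraries 358 (40.3%), totals without the top 1% of genes 417 (47.0%), and centring on coding length, added after seeing the data, 351 (41.8%), against 542 (57.8%) by totals. The library scales move every ratio by 1 constant, and coding-length centring moves it by a constant for each length decile, which shifted 23 of 34 list medians by more than 0.1 (log2), by -0.53 to 0.65. Of the 276 named genes that were called, 245 kept their call by TMM over the 2 libraries and 237 with coding-length centring. A 2-fold threshold gave 1994 higher and 968 lower, and an 8-fold threshold 223 and 181. The other alternatives (no RPM minimum, 20 RPM, interval bound past 4-fold, read test, the first 20 genes kept, 0.5 reads for zero) kept both counts within 1.5 times. The 0.5-read setting moved 1 of the 34 list medians by more than 0.1, that of the AA9 enzymes, to -4.84 from -2.25 relative to all genes. No named gene that was called changed sign under any of these alternatives, but shifts smaller than the 4-fold threshold could not have reversed a call. No paired analysis was possible because each carbon source had 1 library; for the same reason no library could be left out. Calls of genes near the 4-fold threshold and genes under 10 RPM are limited by depth: 260 of the 938 called genes had an interval that reached inside 4-fold.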
